A study of Schizosaccharomyces pombe with 3 samples.

Results

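Small nucleolar RNAs (snoRNAs) and spliceosomal small nuclear RNAs (snRNAs) were examined in RNA-seq of a fission yeast strain with a slow RNA polymerase II (RNAPII). The rows were taken from the deposited count table by identifier, as every row whose identifier contains SNORNA or SNRNA, which gave 60 of the 7049 rows. Of these, 53 are SNORNA rows and 7 are SNRNA rows. RefSeq names 2 of the 7 SNRNA rows, snu3 and snu32, as copies of the nucleolar RNA U3, so that 5 rows (snu1, snu2, snu4, snu5 and snu6) are spliceosomal snRNAs. Of the SNORNA rows, RefSeq names 19 as box H/ACA RNAs, and the remaining 34 are called other snoRNAs here. Ratios were computed for the 35 rows with a mean count of at least 10 over the libraries, namely 29 SNORNA and 6 SNRNA rows. The remaining rows had no count in any library (20 rows) or a mean count under 10 (5 rows). Just outside this minimum, snoR54b had 14, 7 and 6 counts in slow #1, slow #2 and the wild type, snoU24b had 9, 11 and 6 and snoZ15 had 7, 8 and 5. snR46 had 5, 1 and 2. Just inside it, snoR39a had 21, 11 and 3 counts and snoU18 had 23, 8 and 5. The filter of edgeR let 37 members through, the 35 kept and also snoR54b and snoU24b.

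The slow mutant carries the rpb1-N494D substitution in the largest subunit of RNAPII, and was represented by 2 independent CRISPR clones, slow #1 (FBY2324) and slow #2 (FBY2325), with 1 library each. They were compared with 1 library of their wild-type (WT) parent, FBY2323. By their labels, all 3 strains are h- with ade6-M216 and leu1-32, carry the marker alleles ura4-D18 and his3-D1 and lack both fluoride channel genes (fex1_delta and fex2_delta), and they were grown to mid-log phase in supplemented minimal medium. Total RNA was depleted of ribosomal RNA and sequenced as strand-specific read pairs. The libraries held 40746838 counts in slow #1, 30674459 in slow #2 and 31803128 in the wild type. The transcript of rpb1 itself stood at 788 and 837 CPM (counts scaled to a common library size with TMM factors) in the slow clones, against 792 in the wild type, which does not test the substitution. The ura4 row was at 0 in every library, whereas the his3 row (590, 554 and 511 counts in slow #1, slow #2 and the wild type), the fex1 row (427, 244 and 549) and the fex2 row (581, 566 and 714) held counts although the labels give deletion alleles of these genes. These rows thus held counts in the parent as well as in both clones.

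snoRNAs guide the chemical modification of ribosomal RNA in the nucleolus. Box C/D snoRNAs direct methylation of the ribose by fibrillarin and box H/ACA snoRNAs direct the conversion of uridine to pseudouridine by the dyskerin homolog Cbf5, whereas U3, U14 and U17 serve in the cleavage of the ribosomal precursor. The U1, U2, U4, U5 and U6 snRNAs form the core of the spliceosome. Most of these RNAs are made by RNAPII as longer precursors that are trimmed at their ends, some from their own promoters and some from introns of protein-coding genes, and U6 is made by RNA polymerase III.

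The members on which the results turn are shown first, so that their boxes can be read next to their values. Sequences were taken from RefSeq (ASM294v3), are written 5′ to 3′ as DNA of the RNA strand, and their positions are those of that assembly. For the box H/ACA RNAs, the capitals mark the last ACA before the 3′ end, the trinucleotide that names the class. snR42 (chrII:1917406-1917613, plus strand) had the highest level of the kept members. snR94 (chrIII:923877-924086, plus strand) was one of those higher in both slow clones, and snR93 (chrII:3172781-3172923, plus strand) was lower in both.
snR42: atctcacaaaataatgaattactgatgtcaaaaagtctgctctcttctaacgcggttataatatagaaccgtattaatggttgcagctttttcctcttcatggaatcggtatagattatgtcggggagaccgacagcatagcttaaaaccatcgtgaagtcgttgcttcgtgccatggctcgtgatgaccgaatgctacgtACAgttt
snR94: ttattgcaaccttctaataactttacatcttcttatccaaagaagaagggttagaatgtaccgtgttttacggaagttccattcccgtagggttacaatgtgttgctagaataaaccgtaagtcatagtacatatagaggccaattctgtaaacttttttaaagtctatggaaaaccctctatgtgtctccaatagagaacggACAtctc
snR93: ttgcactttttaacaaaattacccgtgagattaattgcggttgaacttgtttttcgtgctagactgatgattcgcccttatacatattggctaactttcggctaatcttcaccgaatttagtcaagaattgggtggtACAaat

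For the other snoRNAs, the capitals mark the box C core TGATG within the first 20 bases and the box D core CTGA within the last 20 bases, where they were found. snoR69b (chrI:4154912-4155002, plus strand) and snoR69 (chrI:5387559-5387641, plus strand) bear the same number in their names and were both higher in the slow clones, as were snoR02 (chrI:2627988-2628071, minus strand) and snr79 (chrI:2705950-2706037, plus strand). snR88 (chrI:1316808-1316891, plus strand) was lower in both. snoR39a (chrI:1712996-1713071, plus strand) and snoR39b (chrII:1791743-1791820, minus strand) are 2 related snoRNAs from introns of different genes.
snoR69b: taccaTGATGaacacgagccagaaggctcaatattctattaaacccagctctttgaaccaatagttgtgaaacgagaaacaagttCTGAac
snoR69: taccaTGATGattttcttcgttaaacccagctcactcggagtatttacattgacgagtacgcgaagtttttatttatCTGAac
snoR02: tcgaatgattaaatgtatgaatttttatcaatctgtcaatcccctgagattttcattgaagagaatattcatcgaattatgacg
snr79: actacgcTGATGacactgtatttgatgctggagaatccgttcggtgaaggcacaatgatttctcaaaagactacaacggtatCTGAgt
snR88: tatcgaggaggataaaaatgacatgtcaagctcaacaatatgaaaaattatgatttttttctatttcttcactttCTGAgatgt
snoR39a: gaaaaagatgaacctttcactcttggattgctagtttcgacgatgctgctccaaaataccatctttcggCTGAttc
snoR39b: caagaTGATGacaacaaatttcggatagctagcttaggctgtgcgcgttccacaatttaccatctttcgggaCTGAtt

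The 2 members of the snoR69 pair shared 55 identical bases over the 103 columns of a global alignment, with a longest common run of 13 bases. The snoR39 pair shared 54 over 81 columns, also with a longest run of 13 bases, and no run of 50 bases of these 4 members recurs in the genome. Over all 34 other snoRNAs, TGATG was found in the first 20 bases of 24 and CTGA in the last 20 bases of 29, with both in 23. These 34 include snR30 (U17), a box H/ACA RNA that RefSeq does not name as such. Neither core was found at its ends, and its ACA, 3 bases from the end, is not counted among the 19 below. In 125717 windows of 84 bases taken along the genome, the same searches of 1 strand found TGATG in 2.11%, CTGA in 5.61% and both in 0.130%. ACA stood exactly 3 bases from the 3′ end in 9 of the 19 box H/ACA RNAs, against 1.70% of 125715 windows of 168 bases. In snR42 and snR94 the last ACA lies 4 bases from the annotated end. No TGATG or CTGA was found at the ends of snoR02, which says nothing about the proteins that bind it.

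Of the snRNAs, U4 (chrII:467489-467615, minus strand) is shown because its row had the highest level among the SNRNA rows, and U1 (chrII:3020205-3020353, plus strand) because its 5′ end, in capitals, pairs with the 5′ splice site of introns.
snu4: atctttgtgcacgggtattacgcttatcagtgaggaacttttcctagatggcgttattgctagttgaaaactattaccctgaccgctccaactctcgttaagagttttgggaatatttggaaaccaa
snu1: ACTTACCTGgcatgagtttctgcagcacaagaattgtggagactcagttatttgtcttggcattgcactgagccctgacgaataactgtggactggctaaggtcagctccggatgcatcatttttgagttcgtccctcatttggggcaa

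Together, the members took a larger share of the counts in each slow clone than in the parent. Their rows summed to 6903 CPM in slow #1 and 8044 CPM in slow #2, against 4081 CPM in the wild type. Most of this sum came from a single RNA, since snR42 alone held 74.9% of the member counts in slow #1, 80.6% in slow #2 and 74.8% in the wild type. Without snR42, snR101 and snR94, the SNORNA rows summed to 278 and 352 CPM in slow #1 and slow #2, against 189 CPM in the wild type. The SNRNA rows summed to 201 CPM in slow #1 and 395 CPM in slow #2, against 201 CPM in the wild type, so that their sum was higher in only 1 of the clones.

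Gene by gene, more snoRNAs were higher than lower in the slow mutant, although none passed the main threshold. Of the 29 SNORNA rows kept, 20 were higher than the wild type in both clones, 6 were lower in both and 3 went opposite ways. Over all 6364 genes with a mean count of at least 10, 42.8% were higher in both clones and 42.6% were lower in both. More than 1.5-fold higher in both clones were 12 SNORNA rows (snR42, snR94, snR96, sno12, sno20, snoR02, snoR69, snoR69b, snoR39a, snoR39b, snoU14 and snoU18), where 8.94% of all genes were. More than 1.5-fold lower in both were snR88, snR93 and snR36, where 5.55% of all genes were. The median difference of log2 CPM from the wild type over the 29 rows was 0.64 in slow #1 and 0.74 in slow #2, with 0.65 for the mean of the clones. The same median over all genes was 0.0049, and over 1217 annotated noncoding RNAs (SPNCRNA rows) it was 0.15.

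**Figure D1:**
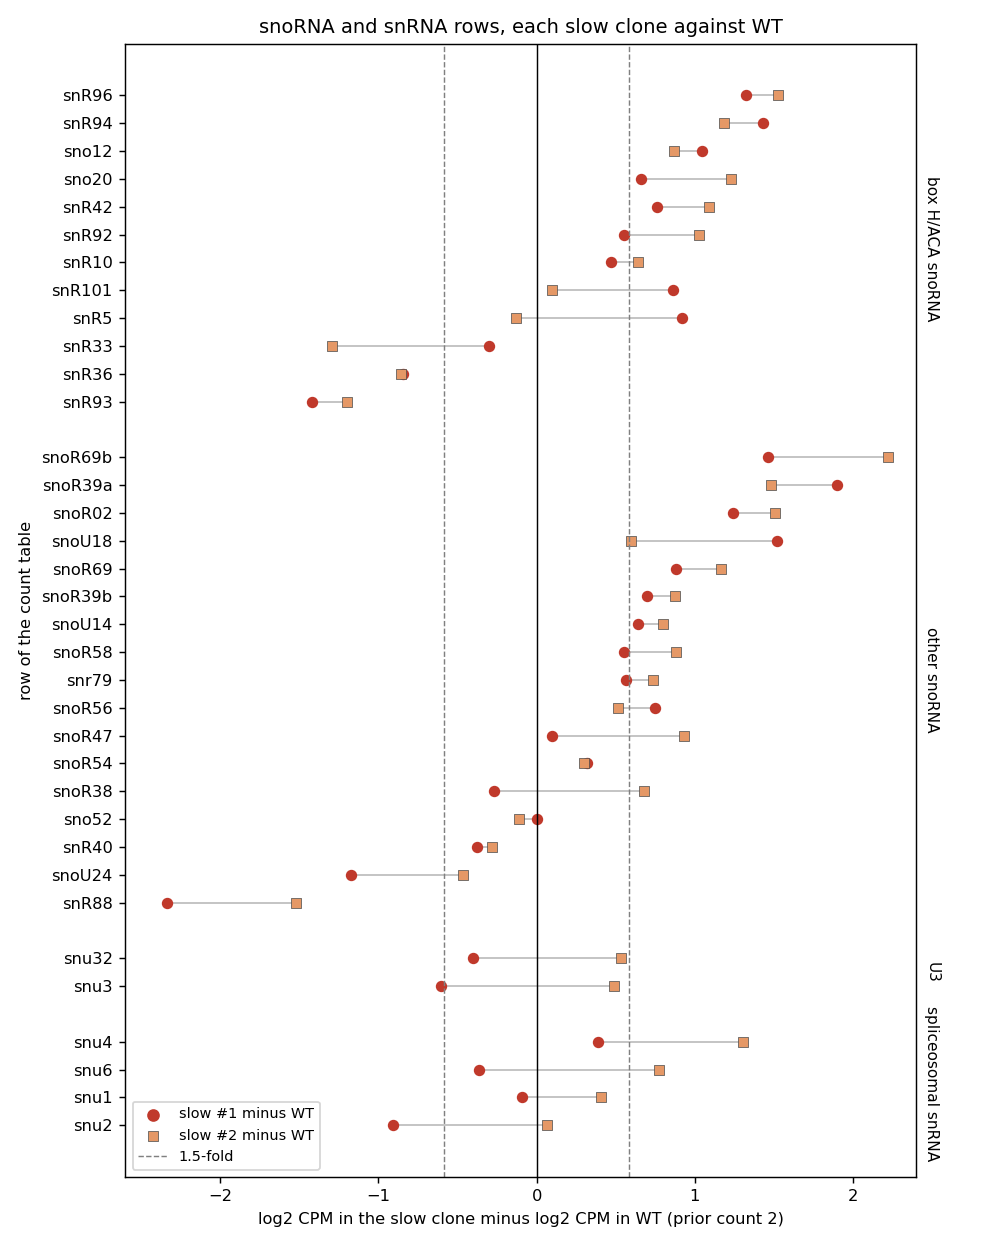
Difference of log2 CPM (prior count 2) from WT for each of the 35 rows with a mean count of at least 10, grouped by class. Circles are slow #1, squares are slow #2, the dashed lines mark 1.5-fold, and 12 SNORNA rows lie beyond the right line in both clones, whereas 5 of the 6 SNRNA rows have the clones on opposite sides of 0.

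The quasi-likelihood test of edgeR, run over 6418 genes with Benjamini-Hochberg adjustment, called 0 of the 37 members tested higher and 0 lower at an FDR under 0.01 with a fold change above 1.5, where 0.312% of all genes were called higher and 0.39% lower. Without adjustment, 14 members were higher (17.5% of all genes were) and 3 were lower (17.9%) at a p under 0.05. At an FDR under 0.05, edgeR called 5 members higher (6.79% of all genes) and 1 lower (5.59%). DESeq2, at the main thresholds, called snR42, snR94, snoR02 and snoR69b higher (4.84% of all genes) and no member lower (3.56%). With 1 wild-type library, the only spread between replicates is that of the 2 clones, and both tools moderate it with the spread of all genes. The p-values thus hold no measure of the spread between wild-type libraries.

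Among the box H/ACA RNAs, 8 of the 12 kept were higher in both slow clones and 3 were lower in both. snR42 was counted 214021 times in slow #1 and 194580 times in slow #2, against 97684 times in the wild type, or 5169.5 and 6485 CPM against 3053 CPM. Both clones lay above the wild type, by 1.69-fold in slow #1 and 2.12-fold in slow #2. The edgeR quasi-likelihood fit gave a log2 fold change of 0.93 ± 0.26 (SE) with an adjusted p of 0.0575, and DESeq2 an adjusted p of 6.43e-05. At 24853 and 31179 CPM per kb in the slow clones, against 14677 CPM per kb in the wild type, snR42 was also the highest of the kept members per length, in each of the 3 libraries. The RNA had passed a column that retains short RNAs poorly, so levels of members of unlike length cannot be compared as amounts of RNA.

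snR94, the third highest per length, had 11962 and 7325 counts in slow #1 and slow #2, against 3431 in the wild type. In CPM these were 289 and 244 against 107, and the clones differed from each other by far less than either did from the wild type. The slow clones averaged 267 ± 31.7 CPM (SD, n = 2), and the log2 fold change was 1.31 ± 0.16 (SE) with an adjusted p of 0.0105 in edgeR. snR101, the second highest per length, behaved otherwise. It had 39930 counts in slow #1 and 17029 in slow #2, against 16958 in the wild type, or 964 and 568 CPM against 530 CPM. Only slow #1 stood clearly above the wild type, and the log2 fold change of 0.53 ± 0.31 (SE) had an adjusted p of 0.266 in edgeR.

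Lower down the range, sno12 (box H/ACA RNA 12, also snR99) had 248 and 159 counts in slow #1 and slow #2, against 92 in the wild type, with a log2 fold change of 0.98. snR92 had 446 and 448 against 234, with a log2 fold change of 0.81. Both clones were above the wild type for each, at adjusted p-values of 0.0574 and 0.0820 in edgeR. sno20, also a box H/ACA RNA, and snR96 had 71 and 77 counts and 49 and 41 counts in the slow clones, against 34 and 14 counts in the wild type.

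snR93, snR36 and snR33 went the other way. snR93 had 41 and 35 counts in slow #1 and slow #2, against 88 in the wild type. Both clones held less than the wild type, with a log2 fold change of -1.36 ± 0.34 (SE) and an adjusted p of 0.0456 in edgeR. snR36 had 74 and 53 counts against 104, with a log2 fold change of -0.87. snR33 had 161 and 58 counts against 154, where the difference of log2 CPM was -0.30 in slow #1 and -1.29 in slow #2, so that this difference came mainly from slow #2. snR10, an RNA that also serves in precursor cleavage in budding yeast, had 51 and 42 counts against 28. snR5 had 34 and 11 counts against 13 and was higher in slow #1 only.

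**Figure D2:**
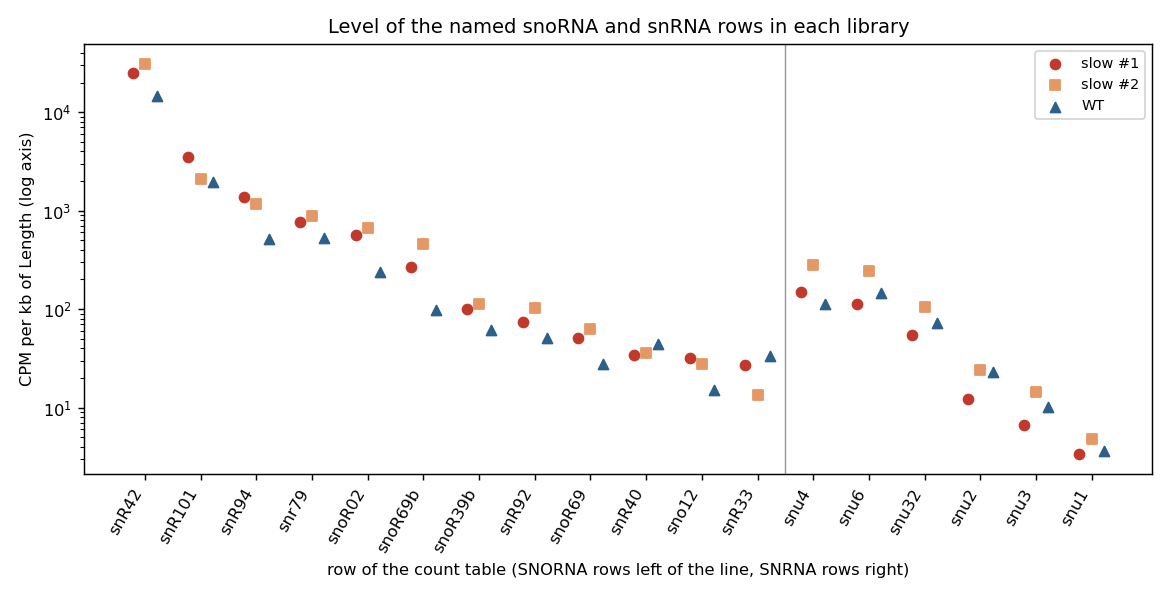
Level of the named rows in CPM per kb of the Length column (log axis), with slow #1 (circles), slow #2 (squares) and WT (triangles) from left to right in each row. The wild type lies above both slow clones for snR40 and snR33, and between the clones for snu6, snu32, snu2, snu3 and snu1. For every other row shown it lies below both.

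Of the 17 other snoRNAs kept, 12 were higher in both slow clones and 3 were lower in both. The largest difference among those with a mean count of at least 100 was that of snoR69b. It had 1018 counts in slow #1 and 1247 in slow #2, against 284 in the wild type, or 24.6 and 41.6 CPM against 8.88 CPM. The slow clones lay 2.77-fold and 4.68-fold above the wild type, and they also differed from each other. In edgeR, the log2 fold change of 1.89 ± 0.34 (SE) had an adjusted p of 0.0225, and in DESeq2 it was 1.82e-07. snoR69 had 176 and 156 counts in the slow clones, against 73 in the wild type, with a log2 fold change of 1.04 and an adjusted p of 0.0628 in edgeR. Both rows of the snoR69 pair were thus more than 1.5-fold above the wild type in each clone.

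snoR02 had 1944 and 1695 counts in slow #1 and slow #2, against 634 in the wild type. At 47.0 and 56.5 CPM against 19.8 CPM, the clones lay close together and both well above the wild type. edgeR gave a log2 fold change of 1.38 ± 0.17 (SE), with an adjusted p of 0.0109 in edgeR and 2.00e-07 in DESeq2. snr79 had 2822 and 2303 counts against 1474, a smaller difference with a log2 fold change of 0.65 ± 0.14 (SE) and an adjusted p of 0.0302 in edgeR. The row of snoR02 lies opposite an exon of alg3 and that of snr79 opposite an exon of gpi12, and the counting was stated to use strand.

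snoU14, the box C/D RNA U14 that is needed to make the small ribosomal subunit in budding yeast, had 417 and 337 counts in the slow clones, against 206 in the wild type, with a log2 fold change of 0.72 and an adjusted p of 0.0680 in edgeR. snoR56 had 143 and 88 counts against 65, and both clones were above the wild type. sno52 did not separate the strains, with 628 and 420 counts against 485, or 15.2 and 14.0 CPM against 15.2 CPM. snR40 had 115 and 89 counts against 116, with a log2 fold change of -0.34 and an adjusted p of 0.422 in edgeR. Both clones were slightly below the wild type for snR40. Of the kept members, snR88 was lowest in the slow clones when set against the wild type, with 6 and 9 counts against 31. Its log2 fold change of -2.17 ± 0.62 (SE) had an adjusted p of 0.0610 in edgeR and rests on few reads.

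Of the kept rows, 8 lie inside an intron of a protein-coding gene, on the same strand, and none of their bases is counted for the host. For 7 of these 8, the snoRNA stood above its host in both clones when each was set against its own wild-type level. For 1 (snoU24 in spt20) it stood below in both. Of the 7, snoR39a, snoU18 and snoR54 rest on few reads, with 3, 5 and 17 counts in the wild type. Read pairs from unspliced host RNA could enter the snoRNA rows, which was not tested. The median difference of log2 CPM of the 8 snoRNAs was 0.44 in slow #1 and 0.78 in slow #2, and that of their hosts was -0.33 and -0.37. The 21 SNORNA rows outside introns had medians of 0.66 and 0.74.

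snoR39b lies in an intron of rpl701, a ribosomal protein gene, and had 325 and 266 counts in slow #1 and slow #2, against 154 in the wild type. Its log2 fold change was 0.79 with an adjusted p of 0.0675 in edgeR, whereas the exons of rpl701 stood at -0.69 with an adjusted p of 0.0439. Its relative snoR39a, in an intron of rlp7, had 21 and 11 counts against 3 and is too low for its size of change to be read closely. snoR58, in an intron of the purine gene ade4, had 1284 and 1166 counts against 675, at a log2 fold change of 0.73 (adjusted p = 0.04998 in edgeR), and ade4 itself was at -0.41. snoR58 counts amounted to 14.9% and 19.1% of the ade4 counts in the slow clones, against 7.73% in the wild type. snoR47 in fta3 was apart from the wild type in slow #2 only, with 1130 and 1460 counts against 817. Both clones were above the wild type for snoR54 in gua1 (28 and 20 counts, against 17), whereas snoR38 in SPAC29A4.02c (215 and 303 counts, against 201) was higher in slow #2 only. In snoU24, whose annotated 47 bases are the shortest of all members, 21 and 26 counts stood against 39.

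**Figure D3:**
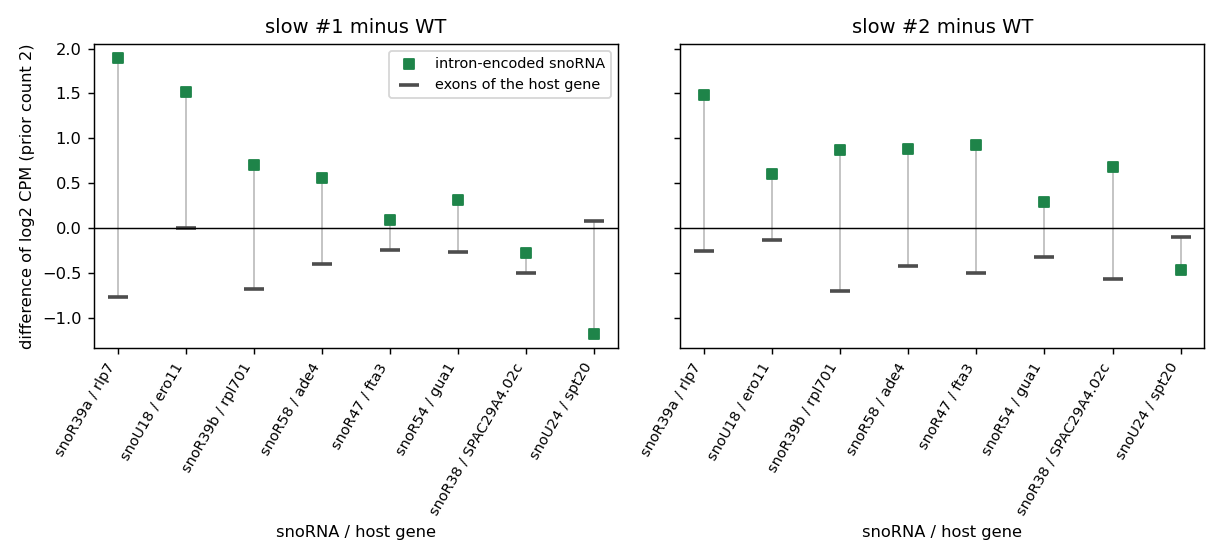
Difference of log2 CPM (prior count 2) from WT for the 8 snoRNAs encoded in introns (squares) and for the exons of their host genes (bars), in slow #1 (left) and slow #2 (right). The square lies above the bar for 7 of the 8 pairs in both clones, and below it for snoU24 and spt20. The squares of snoR39a, snoU18 and snoR54 rest on few reads.

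The SNRNA rows did not share a direction. All 6 kept rows were higher in slow #2 than in slow #1, and 5 of them were below the wild type in slow #1 and above it in slow #2. The median difference from the wild type was -0.38 in slow #1 and 0.51 in slow #2, with a median of 0.11 over the mean of the clones. Other RNAs also differed between the clones. The rRNA rows of the table, which the depletion should have removed, summed to 1263 CPM in slow #1 and 8635 CPM in slow #2, against 1119 CPM in the wild type. The mRNA of fib1, which encodes fibrillarin, stood at 143 and 370 CPM against 203, and that of nop10, of the H/ACA particle, at 111 and 244 CPM against 191. Both mRNAs were below the wild type in slow #1 and above it in slow #2, and were picked after their values had been seen. Whether what sets the clones apart has a part in the SNRNA differences was not tested.

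U4 (snu4) was the only SNRNA row above the wild type in both clones. It had 4931 and 6730 counts in slow #1 and slow #2, against 2907 in the wild type, or 119 and 224 CPM against 90.8 CPM. The difference of log2 CPM was 0.39 in slow #1 and 1.30 in slow #2, with a log2 fold change of 0.92 ± 0.35 (SE) and an adjusted p of 0.119 in edgeR. U6 (snu6), its base-pairing partner, had 1972 and 3142 counts against 1960, or 47.6 and 105 CPM against 61.3 CPM. Slow #1 was thus below the wild type and slow #2 above it, and the log2 fold change of 0.31 ± 0.41 (SE) had an adjusted p of 0.621 in edgeR.

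U2 (snu2), which pairs with the branch site, had 236 and 337 counts in slow #1 and slow #2, against 344 in the wild type, a difference of log2 CPM of -0.91 and 0.063. U1 (snu1) had 91 and 94 counts against 75. Neither was apart from the wild type beyond the spread of the clones, at log2 fold changes of -0.36 ± 0.38 (SE) for U2 (adjusted p = 0.540 in edgeR) and 0.17 ± 0.35 (SE) for U1. U5 (snu5) had 4, 0 and 6 counts in slow #1, slow #2 and the wild type, too few for a ratio.

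The U3 rows, whose product is nucleolar, followed the pattern of the other SNRNA rows. snu32 (U3B) had 924 and 1282 counts in slow #1 and slow #2, against 943 in the wild type, and snu3 had 175 and 273 against 207. In both rows slow #1 was below the wild type and slow #2 above it, and their log2 fold changes of 0.14 and 0.027 had adjusted p-values of 0.806 and 0.972 in edgeR. The levels of both rows are uncertain, because 41 of the 206 windows of 50 bases in snu32 occur a second time in the genome, at chrI:987858-987947 (ASM294v3, minus strand). By these numbers the copy lies inside the counted snu3 row, which spans bases 987631 to 988266 of chromosome I in the deposited table and holds 195 of the 256 bases that RefSeq gives for snu3. In the RefSeq sequence of no other member did a window of 50 bases recur, and snoU24, at 47 bases, is too short for this search.

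The SNRNA rows are longer than the RNAs they are named for, which bears on their levels per length. The U4 row spans 799 bases where RefSeq gives 127, the U1 row 654 where it gives 149, the U2 row 466 where it gives 187 and the U6 row 425 where it gives 94. Reads from flanking RNA could enter these counts, and the levels per kb are those of the rows and not of the mature RNAs. Of the 53 SNORNA rows, 51 have the same span as the RefSeq gene. Read pairs from longer precursor or flanking RNA that overlap these rows could still enter their counts, which was not tested. The U1 row also shares bases with gpt2, and the U6 row with cwf21, on the same strand. Among the snRNA rows, U4 held 149 and 281 CPM per kb in the slow clones, against 114 in the wild type, and U1 held 3.36 and 4.79 against 3.58.

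The 20 SNORNA rows with no count in any library had a common feature. Each overlaps an exon of another annotated gene on the same strand, over 94.4% to 100% of its length, and a read pair that lies in both genes is assigned to neither under the default of the counting tool. Of the 33 SNORNA rows with no such overlap, every one had a count. The 0 of these rows is thus no measure of the RNA. The rows include snR30 (U17), the box H/ACA RNA needed for the small ribosomal subunit, snR3, snR90, snR91, snR95, snR97 and snR98 among the box H/ACA RNAs, and the clusters of snoZ and snR41. The snoZ transcript (SPNCRNA.659), a noncoding RNA of 1901 bases, holds snoZ8, snoZ7, snoZ5, snoZ4 and snoZ3 in this order. SPNCRNA.723 holds snR41, snR70 and snR51b.

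**Figure D4:**
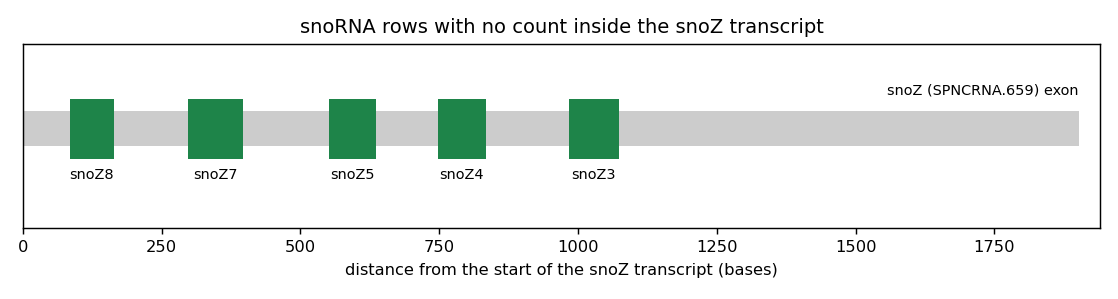
Position of 5 snoRNA rows (green) in the exon of the snoZ transcript (grey), as distance from its start in bases, drawn to scale. The snoRNAs lie between positions 86 and 1073 of 1901 bases, so that the rest of the transcript is where the counts of the snoZ row can come from.

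What remains countable at these loci is the part of the overlapping transcript outside the snoRNA. The snoZ transcript had 1883 and 1395 counts in slow #1 and slow #2, against 2247 in the wild type, with a log2 fold change of -0.61 and an adjusted p of 0.0268 in edgeR, the lowest adjusted p among these transcripts. The transcript over sno16, SPNCRNA.1597, had the highest count, with 9258 and 7312 against 5286. Of the 14 overlapping genes, 5 were higher in both slow clones, 6 were lower in both and 0 were called in edgeR at the main thresholds, where 0.312% of all genes were called higher and 0.39% lower. None of these values can be read as the level of the snoRNA inside.

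The differences of the snoRNAs were set against Length, over both classes and within each. The kept rows shorter than the median of 91 bases (14 rows) had a median difference of log2 CPM of 0.64 over the mean of the clones, and the 15 rows at or above it had 0.72, so that the median of shorter minus longer rows was -0.077. With a boundary of 150 bases in place of the median, this difference was -0.30. Across the 29 SNORNA rows, Spearman's rho of Length with the difference from the wild type was 0.23 in slow #1 and 0.10 in slow #2, as a description over rows that share the same libraries. Among the 12 box H/ACA RNAs rho reached 0.61 for slow #1 and 0.60 for slow #2, and among the 17 other snoRNAs 0.22 and 0.13. Rows with a mean count of at least 100 (17 rows) had a median of 0.72, and those below (12 rows) had 0.48. By class, the box H/ACA RNAs had a median of 0.67 and the other snoRNAs of 0.65.

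**Figure D5:**
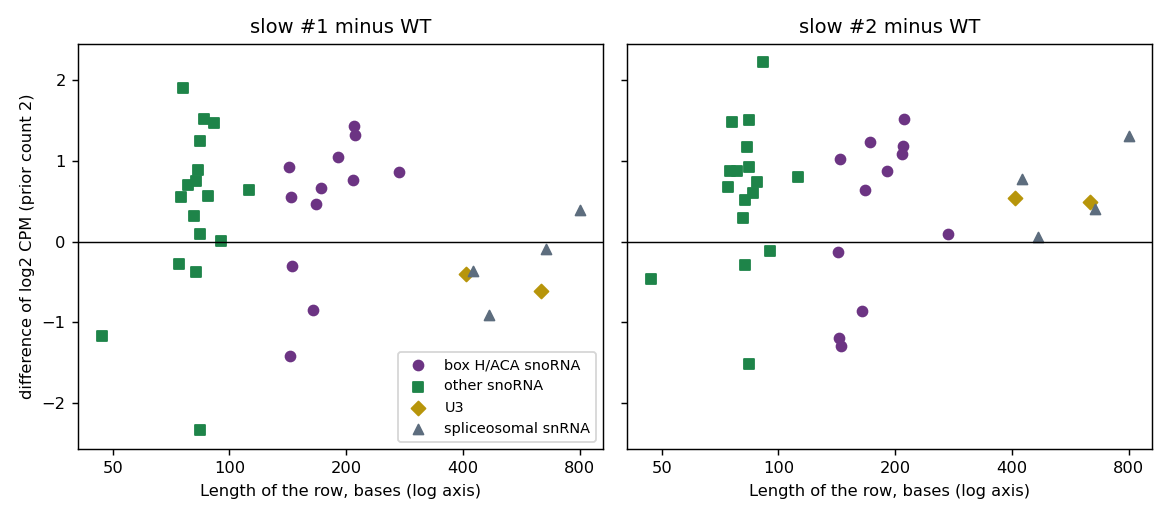
Difference of log2 CPM (prior count 2) from WT against the Length of the row (log axis), in slow #1 (left) and slow #2 (right), with 1 point for each of the 35 kept rows, coloured by class. Among the SNORNA rows, values above and below 0 occur at Lengths up to 164 bases, and all longer ones lie above 0 in both panels. The SNRNA rows shift up as a group between the left and the right panel.

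The mRNAs of the proteins that bind these RNAs were examined for the same comparison. Of the 4 proteins of the box C/D particle and the 4 of the box H/ACA particle, 0 were called in edgeR at the main thresholds, which called 0.312% of all genes higher and 0.39% lower, so that a list of this size could hold 0 calls by these shares alone. cbf5, which encodes the pseudouridine synthase, had a log2 fold change of -0.53 with an adjusted p of 0.0537. An unadjusted p under 0.05 was found for cbf5 alone of the 8, where 17.5% of all genes were higher and 17.9% lower by this measure, and DESeq2 called none of them (4.84% higher and 3.56% lower over all genes). The median log2 fold change was -0.27 for the C/D list and -0.17 for the H/ACA list. Of 6 assembly factors tested, 0 were called by either tool and 2 were lower at an unadjusted p under 0.05, among them bcd1 at -0.54.

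The same shares over all genes apply to the lists that follow. Of 13 genes for the maturation and decay of the ends of these RNAs, edgeR called 0, and an unadjusted p under 0.05 was found for 4 that were lower and 0 that were higher. DESeq2 called 1 of them lower, dis3, a catalytic subunit of the RNA exosome, at 243 and 238 CPM in the slow clones, against 379 CPM in the wild type. Of the 14 Sm and Lsm proteins, which form rings on snRNAs and on U6, edgeR called 0, and 6 had an unadjusted p under 0.05 (4 of these above the wild type and 2 below). DESeq2 called lsm3 and lsm6 higher, and lsm6 stood at 221 CPM in each slow clone, against 121 CPM in the wild type. Of 11 proteins particular to single snRNPs and 2 of the SMN complex, edgeR and DESeq2 called 0, and 3 had an unadjusted p under 0.05 (2 of them higher, 1 lower).

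Among other structural RNAs, srp7, the RNA of the signal recognition particle, rose in the slow mutant. It stood at 1292 and 1435 CPM in slow #1 and slow #2, against 396 CPM in the wild type, with a log2 fold change of 1.78 ± 0.19 (SE) and an adjusted p of 0.00957 in edgeR. With RLE factors the adjusted p was 0.0204, which ends this call, and under the other scalings and without the low-count filter it was between 4.61e-09 and 0.00967. rrk1, the RNA of RNase P, stood at 99.4 and 100.3 CPM against 74.8 CPM, and ter1, the telomerase RNA, at 63.1 and 50.7 CPM against 88.1 CPM. Nuclear tRNA rows summed to 47.8 and 69.1 CPM in the slow clones, against 18.6 CPM in the wild type. Whether the recovery of short structured RNAs, such as tRNAs and most snoRNAs, differed between the preparations was not tested. A change in the RNA per cell cannot be told apart from a change in the remaining RNA with which it was scaled.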

How the data were processed

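RNA-seq counts of 2 slow clones and 1 wild-type strain were analyzed. The authors removed adapters with Trimmomatic 0.36, aligned the reads to ASM294v2 with STAR 2.5.1 and counted read pairs by strand with featureCounts (its version was not given in the sources at hand). The deposited values are raw counts per gene, and the Length column holds another deposited value, the summed exon length. The RNA had passed a silica column, which retains short RNAs poorly.

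In R 4.3.3, edgeR 4.0.16 was run on the raw counts after filterByExpr (minimum count 10, minimum total 15), with TMM factors of 1.02, 0.978 and 1.01 for slow #1, slow #2 and the wild type, the quasi-likelihood test and Benjamini-Hochberg adjustment over 6418 genes. Calls required a fold change above 1.5 and an FDR under 0.01. The common dispersion was 0.0124, with 1 residual and 5.25 prior degrees of freedom, and a standard error is the absolute log2 fold change over the root of F. A value of 1 clone is its log2 CPM minus that of the wild type, at a prior count of 2. The script was tested on simulated data. DESeq2 1.42.0 and other scalings, filters and thresholds were alternatives.

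RefSeq (ASM294v3) gave names for 6844 of the 7049 identifiers, classes and sequences. Named were, by rule, every SNRNA row with a mean count of at least 10, called members, the 8 SNORNA rows with the largest change each way among those with a mean count of at least 100 and the same sign in both clones (only 2 were lower), the 5 with the highest level per kb, up to 4 called genes of each list, and rpb1, ura4, his3, fex1 and fex2. Any other gene named was picked after its values had been seen. The members and lists were chosen with earlier results of these data known.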

Additional observations from a re-analysis of the deposited data

How the results depend on the processing

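No member was called in edgeR with TMM, RLE or upper-quartile factors, and with RLE factors no gene at all was called. Members called higher numbered 4 in DESeq2, 2 with TMM factors from protein-coding genes (snR94 and snoR02, where 0.701% of all genes were called higher), 2 without the low-count filter (snR94 and snoR02, 1.89%), 5 at an FDR under 0.05 and 4 (snoR02, snoR69b, snR94 and snu4, 2.91%) with the libraries scaled to nda2, act1 and fba1, against 0 in the main setting. Members called lower numbered 1 at an FDR under 0.05 and 2 (snR93 and snR88, where 9.52% of all genes were called lower) with the scaling to nda2, act1 and fba1, against 0. This scaling lowers the median of all genes by a log2 shift of -0.19, and the causes of these differences were not tested. It gave a median of 0.46 for the SNORNA rows and of -0.073 for the SNRNA rows, against 0.65 and 0.11, and log2 fold changes of -0.019 for snu1, -0.18 for snu3 and -0.069 for snu32.

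With 1 clone left out, the median of the SNORNA rows was 0.64 to 0.74 and that of the SNRNA rows -0.38 to 0.51. The difference of log2 CPM of the remaining clone was -0.090 to 0.41 for snu1, -0.91 to 0.063 for snu2 and -0.61 to 0.49 for snu3. It was -0.36 to 0.77 for snu6 and -0.40 to 0.54 for snu32. The sign of each thus depends on the clone. Without slow #1, 18 SNORNA rows were over 1.5-fold higher, and without slow #2, 15, against 12 that were so in both, which is the stricter criterion. The share over all genes (8.94% in both clones) was computed for the main setting only. The count in both clones was 8 with the scaling to nda2, act1 and fba1 and 9 with a mean count of at least 50. It was 13 with TMM factors from protein-coding genes and 15 with upper-quartile factors. The wild-type library cannot be left out.

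The median of shorter minus longer SNORNA rows was -0.077, and was -0.036 with a mean count of at least 50, -0.30 with a boundary of 150 bases and -0.10 to -0.090 with 1 clone left out. Without the U3 rows, an alternative chosen after seeing the data, the median of the SNRNA rows was 0.18. No paired analysis was possible because the wild type has 1 library and the groups share fewer than 2 replicate numbers. The settings for srp7 were also chosen after seeing the data. Rows of few counts, such as snR88, snoR39a and snoU18, are limited by depth.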
